A study of Mus musculus with 8 samples.

Results

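The genes described here are Srebf1, which encodes the transcription factors SREBP-1a and SREBP-1c, and 9 genes of fatty acid synthesis that are known as its targets or companions in liver, namely Fasn, Acaca, Acacb, Acly, Scd1, Elovl6, Me1, Thrsp and Pnpla3. They were chosen by gene symbol, and each of the 10 symbols had 1 row among the 55421 transcripts of the deposited tables. All 10 passed the filter on low counts, which left 14506 transcripts to be tested. Their RNA was measured by poly(A) sequencing of whole liver from male C57BL/6J mice, bought at 4 weeks of age, kept on a diet with 45% of its calories from fat, and killed at 30 weeks of age. The 4 groups of 2 mice each were sudachitin at ZT18, control at ZT18, sudachitin at ZT6 and control at ZT6, where ZT is zeitgeber time in hours after lights on, so that ZT18 lies in the night and ZT6 in the day. Sudachitin, a plant flavone with several methoxy groups, was given by oral gavage every other day at 100 mg per kg of body weight between ZT8 and ZT10, and controls received PBS in the same way. The sequenced mice came from cohorts of 12 sudachitin and 11 control mice, and all of them ate the high-fat diet, so no group was lean. Food intake in the hours before collection was not analysed here.

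De novo lipogenesis turns acetyl-CoA from sugar into fatty acids. ATP citrate lyase releases acetyl-CoA from citrate, acetyl-CoA carboxylase makes malonyl-CoA from it, fatty acid synthase builds palmitate, and an elongase and a desaturase turn palmitate into longer and unsaturated chains. In liver SREBP-1c is known to switch these genes on after feeding and under insulin, and mice feed mainly at night. SREBP-1 is made as a membrane-bound precursor and acts only after it is cut, so its RNA level is not its activity.

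Libraries held 13914116 to 17759630.5 counts in exons, and levels are given as CPM, counts relative to library size scaled by the TMM method. Sums of marker lists, sums of sex-biased genes and ranges of single markers are CPM without the TMM scaling. The 8 hepatocyte markers, among them Alb and Apoa1, summed to 87994 to 106988 CPM in the 8 libraries. Nr1d1, a clock gene with its peak in the day, had 4.86 and 7.52 CPM in sudachitin ZT18 livers and 4.91 and 5.13 CPM in control ZT18 livers, against 113 and 91.3 CPM in sudachitin ZT6 livers and 120 and 102 CPM in control ZT6 livers, so the night and day labels fit this gene in all 8 libraries. The sample titles carry codes whose meaning is not given, and none of their starts is shared between groups, so cages or handling, if the codes mark them, cannot be told apart from either treatment or time. Control ZT18 replicate 1 stood apart in genes that differ between the sexes: 15 male-biased genes summed to 7209 CPM there and to 15706 to 24074 CPM in the other 7 libraries, and 12 female-biased genes to 410 CPM against 8.91 to 37.2 CPM. The members' main results are therefore also given without it.

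The 250 bases upstream of the RefSeq transcription start (build GRCm38.p6) are shown for the gene of the factor itself, for Fasn, and for Elovl6 and Thrsp, which are the genes that passed the edgeR test between night and day over both treatments. RefSeq gives 3 starts for Srebf1, and the window shown is chr11:60220628-60220877 on the minus strand, whose start lies 23 bases from that of the counted transcript. The Fasn window is chr11:120824548-120824797 on the minus strand and the Elovl6 window chr3:129532136-129532385 on the plus strand, both at the start of the counted transcript. The Thrsp window is chr7:97417551-97417800 on the minus strand, and the start lies 180 bases inside the counted transcript. Each is written 5′ to 3′ on the strand of its gene, ending at the base before the start, with CCAAT boxes (the NF-Y box) and GGGCGG boxes (the Sp1 box) of either strand in capitals.
Srebf1: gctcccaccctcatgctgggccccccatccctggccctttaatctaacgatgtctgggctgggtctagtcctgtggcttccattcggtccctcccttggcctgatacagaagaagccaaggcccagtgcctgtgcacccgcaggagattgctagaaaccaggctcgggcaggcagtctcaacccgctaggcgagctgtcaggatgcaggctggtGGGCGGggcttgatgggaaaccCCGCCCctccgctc
Fasn: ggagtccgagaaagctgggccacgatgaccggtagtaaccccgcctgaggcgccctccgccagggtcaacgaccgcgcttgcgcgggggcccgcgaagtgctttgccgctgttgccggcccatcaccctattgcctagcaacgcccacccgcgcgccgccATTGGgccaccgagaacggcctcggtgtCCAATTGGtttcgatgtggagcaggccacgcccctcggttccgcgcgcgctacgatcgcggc
Elovl6: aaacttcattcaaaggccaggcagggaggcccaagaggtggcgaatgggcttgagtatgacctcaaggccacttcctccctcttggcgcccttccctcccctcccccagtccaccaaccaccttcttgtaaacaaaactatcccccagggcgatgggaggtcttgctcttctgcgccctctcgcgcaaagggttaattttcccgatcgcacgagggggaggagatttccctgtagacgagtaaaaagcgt
Thrsp: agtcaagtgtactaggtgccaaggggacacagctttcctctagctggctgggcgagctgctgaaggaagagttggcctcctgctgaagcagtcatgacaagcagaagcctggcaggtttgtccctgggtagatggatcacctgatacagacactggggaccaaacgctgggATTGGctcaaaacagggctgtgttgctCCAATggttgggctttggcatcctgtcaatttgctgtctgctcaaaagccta
The Fasn window held 3 CCAAT boxes, whose first bases lie 90, 62 and 59 bases before the start, the last 2 overlapping on opposite strands. The Thrsp window held 2, at 79 and 52 bases before the start. The Srebf1 window held 2 GGGCGG boxes, at 36 and 14 bases before the start, and the Elovl6 window held neither motif. The other 2 Srebf1 starts lie 10133 and 1977 bases from the counted one. The window of the first held 1 CCAAT box and 2 GGGCGG boxes, and that of the second 1 CCAAT box. Of 32851 mouse promoter windows of the same length, 33.8% held CCAAT and 32.7% held GGGCGG, so both are common. The sterol regulatory element core TCACCCCAC, found in 0.496% of all windows, its looser form TCACNCCAC (1.05%) and the E-box CACGTG (6.02%) were searched on both strands and were in none of these 4 windows, nor in those of Acly, Me1 and Pnpla3. The windows of the other 2 Srebf1 starts held none of these 3 motifs either. Which start gives SREBP-1a or SREBP-1c was not assigned here, so the Srebf1 window shown need not be that of SREBP-1c. Only these exact letters were searched, and elements that depart from them would be missed. A match or its absence describes these letters in this window only.

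Levels set side by side between genes are given per length, as FPKM averaged over the 8 livers. Scd1, the desaturase that makes oleate from stearate, had a mean of 1795 FPKM and ranked 20th of all transcripts. Thrsp, also called Spot 14, a small protein that promotes lipogenesis, came next with 317 FPKM. Fasn, fatty acid synthase, had 80.3 FPKM, Acly, ATP citrate lyase, 72.9 FPKM, and Me1, the cytosolic malic enzyme that supplies NADPH, 63.9 FPKM. Srebf1 had 43.9 FPKM and Elovl6, the elongase that takes palmitate to stearate, 26.6 FPKM. The carboxylases were lower, with 10.5 FPKM for Acaca, whose cytosolic enzyme feeds synthesis, and 9.65 FPKM for Acacb, whose mitochondrial enzyme makes the malonyl-CoA that restrains fatty acid oxidation. Pnpla3, a lipid droplet protein, was lowest with 2.24 FPKM and only 18 to 286.5 counts per library, so its values carry the largest counting error. The highest library exceeded the lowest by 18.7 times for Pnpla3, 7.98 times for Thrsp and 6.21 times for Elovl6, against 2.14 times for Acaca, the least variable of the 10. One liver led the pathway: control ZT18 replicate 2 was the highest of the 8 libraries for 9 of the 10 genes, against 12.5% of all tested genes, and Acacb alone was highest elsewhere, in sudachitin ZT18 replicate 2.

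**Figure D1:**
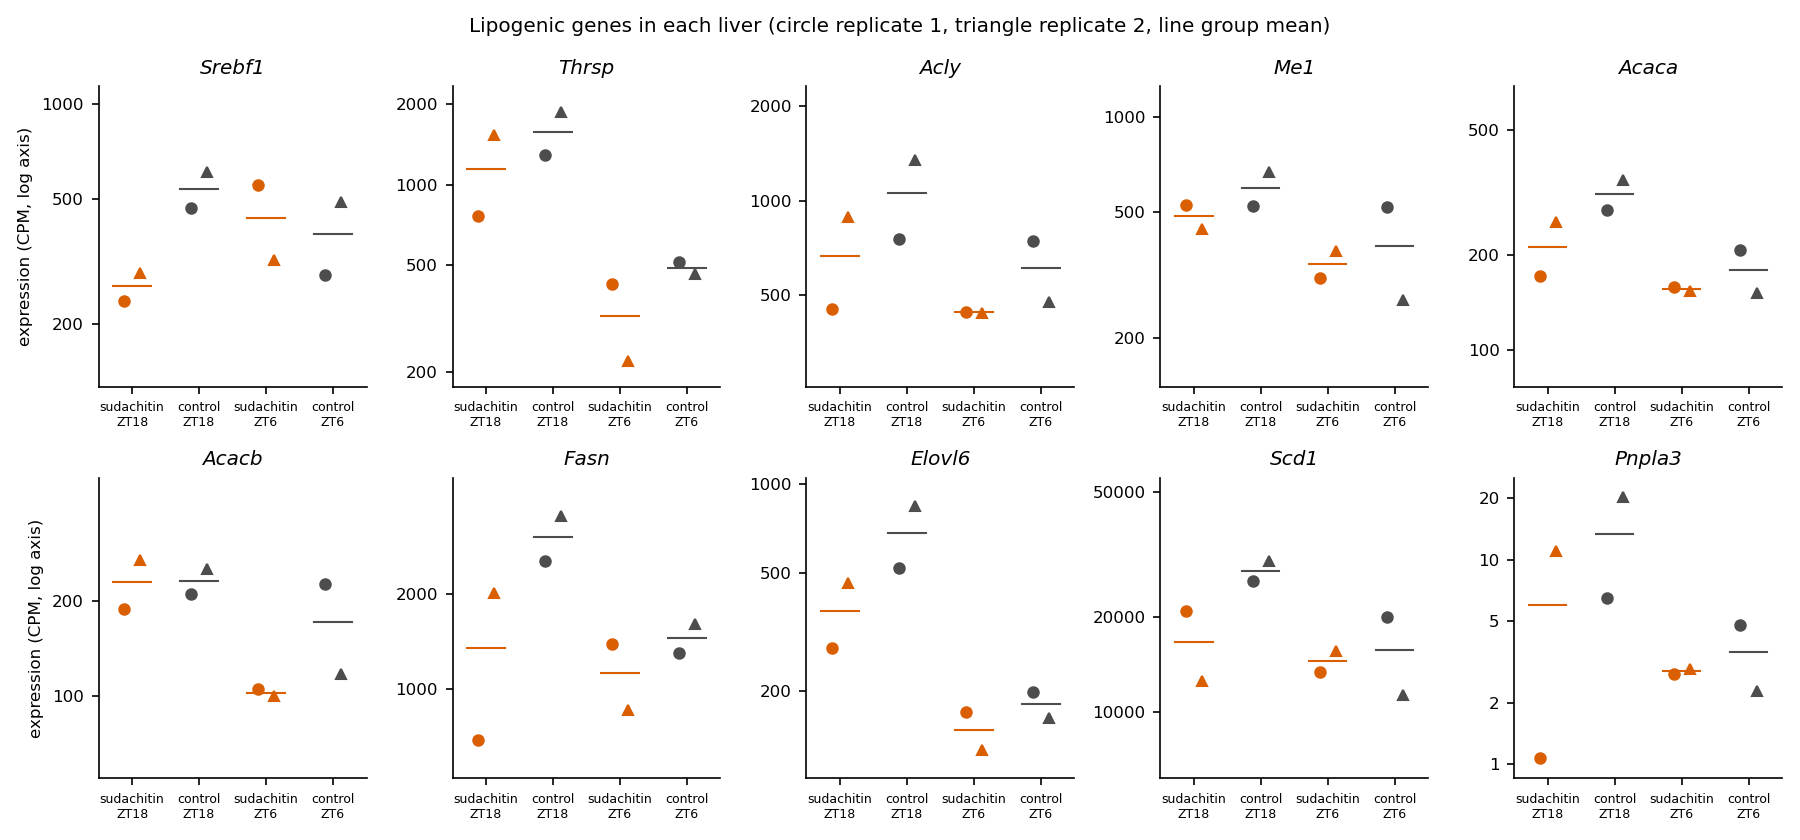
Expression of the 10 genes in TMM-scaled CPM on log axes, 1 panel per gene, with sudachitin in orange, control in grey, a circle for replicate 1, a triangle for replicate 2 and a line for the group mean of 2 mice. Control ZT18 replicate 2 is the highest point in 9 of the 10 panels, and the ZT18 points of Elovl6 and Thrsp all lie above their ZT6 points.

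Between night and day, Elovl6 and Thrsp passed the edgeR test over both treatments, and both were higher at night. Elovl6 had 279 and 465 CPM in sudachitin ZT18 livers and 522 and 843 CPM in control ZT18 livers, against 170 and 127 CPM in sudachitin ZT6 livers and 199 and 162 CPM in control ZT6 livers. Each of the 4 night livers was above each of the 4 day livers. Over both treatments Elovl6 rose by 1.62 on the log2 scale at ZT18 relative to ZT6 (SE 0.23, edgeR adjusted p = 0.00819). Thrsp had 762 and 1532 CPM in sudachitin ZT18 livers and 1292 and 1872 CPM in control ZT18 livers, against 427 and 220 CPM in sudachitin ZT6 livers and 514 and 465 CPM in control ZT6 livers. Here too the night and day livers did not overlap. Thrsp rose by 1.76 (SE 0.26, edgeR adjusted p = 0.01). These 2 of the 10 genes were called higher, while 1.86% of all tested genes were called higher in that comparison, and they were the 2 whose 4 night libraries all exceeded the 4 day libraries, against 5.99% of all genes. None was called lower. Of the 10 genes, 8 had an unadjusted p under 0.05, against 20.4% of all genes, and 4 without control ZT18 replicate 2, 5 without control ZT6 replicate 2 and 6 or 7 without any other library. Here and below, the number of all genes under 0.05 with a library left out is not given. A shift among the 10 genes can therefore not be told apart from a shift in all genes. The median log2 change of the 10 was 0.68, with 9 above 0, and that of all tested genes was 0.02. Without control ZT18 replicate 1, Elovl6 (1.68, adjusted p = 0.00488) and Thrsp (1.86, adjusted p = 0.00522) passed, and so did Acaca (0.64, adjusted p = 0.049) and Acacb (0.91, adjusted p = 0.0465). Acacb also passed without control ZT6 replicate 1 (1.08, adjusted p = 0.0187) and Acaca without sudachitin ZT18 replicate 1 (0.76, adjusted p = 0.0364). DESeq2, run as an alternative, called 5 of the 10 higher, namely Elovl6, Thrsp, Acaca (adjusted p = 0.00404), Acacb (adjusted p = 0.00669) and Acly (adjusted p = 0.0352). The share of all genes called by DESeq2 is not given here. The alternative settings other than no filter called 141 to 931 of all genes, against 534 in the main fit. Limma on log2(FPKM + 0.1) without a filter on low values called none, with adjusted p = 0.0506 for Elovl6 and 0.0614 for Thrsp.

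Acaca, Acacb, Acly and Me1 had smaller differences between night and day, and none of them passed by edgeR over all 8 libraries. Acaca had 172 and 254 CPM in sudachitin ZT18 livers and 279 and 346 CPM in control ZT18 livers, against 158 and 154 CPM in sudachitin ZT6 livers and 207 and 152 CPM in control ZT6 livers. Its night libraries overlapped the day libraries only through sudachitin ZT18 replicate 1, and its log2 change over both treatments was 0.62 (SE 0.16, edgeR adjusted p = 0.065). Acacb had 188 and 270 CPM in sudachitin ZT18 livers and 210 and 253 CPM in control ZT18 livers, against 105 and 100 CPM in sudachitin ZT6 livers and 227 and 117 CPM in control ZT6 livers. A single day liver, control ZT6 replicate 1, reached the night range, and the log2 change was 0.79 (SE 0.23, adjusted p = 0.0963). Acly had 453 and 884 CPM in sudachitin ZT18 livers and 757 and 1349 CPM in control ZT18 livers, against 444 and 439 CPM in sudachitin ZT6 livers and 743 and 477 CPM in control ZT6 livers. Its night livers overlapped its day livers only through sudachitin ZT18 replicate 1, which lay near the lowest day livers (0.69, SE 0.25, adjusted p = 0.155). Me1 had 529 and 443 CPM in sudachitin ZT18 livers and 523 and 669 CPM in control ZT18 livers, against 310 and 377 CPM in sudachitin ZT6 livers and 519 and 263 CPM in control ZT6 livers. Apart from control ZT6 replicate 1, its day livers were below its night livers (0.55, SE 0.20, adjusted p = 0.152).

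Fasn and Pnpla3 had the widest gaps of the 10 between mice of a group, up to 2.91 and 10.3 times in sudachitin ZT18 livers. Scd1 reached 1.76 times in control ZT6 livers, below the 2.01 times of Thrsp in sudachitin ZT18 livers. Fasn had 692 and 2014 CPM in sudachitin ZT18 livers and 2549 and 3541 CPM in control ZT18 livers, against 1393 and 857 CPM in sudachitin ZT6 livers and 1302 and 1612 CPM in control ZT6 livers. The lowest and the highest Fasn values of the study were both at night, and the log2 change over both treatments was 0.67 (SE 0.33, edgeR adjusted p = 0.291). Scd1 had 20975 and 12545 CPM in sudachitin ZT18 livers and 26004 and 30136 CPM in control ZT18 livers, against 13415 and 15644 CPM in sudachitin ZT6 livers and 20047 and 11389 CPM in control ZT6 livers. Its control ZT18 livers were above all others (0.52, SE 0.23, adjusted p = 0.244). Pnpla3 had 1.07 and 11 CPM in sudachitin ZT18 livers and 6.53 and 20.2 CPM in control ZT18 livers, against 2.77 and 2.93 CPM in sudachitin ZT6 livers and 4.82 and 2.29 CPM in control ZT6 livers. The 2 sudachitin ZT18 mice stood 10.3 times apart, and the log2 change of 1.51 had an SE of 0.62 (adjusted p = 0.211).

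Within control livers, 8 of the 10 genes had both ZT18 libraries above both ZT6 libraries, where 21.3% of all tested genes did, the exceptions being Srebf1 and Acacb. Elovl6 alone passed the test, rising by 1.92 (SE 0.30, edgeR adjusted p = 0.0428), against 0.214% of all genes called higher, and 5 had an unadjusted p under 0.05, against 12.9%, or 3 without control ZT18 replicate 2 or control ZT6 replicate 2 and 8 without control ZT18 replicate 1. That call was lost without either sudachitin ZT6 library (adjusted p = 0.0792 without replicate 1 and 0.0745 without replicate 2) and without either control ZT6 library (0.221 without replicate 1 and 0.319 without replicate 2). It was also lost with the replicate block (adjusted p = 0.0627), with only the compared groups in the fit (0.13) and with limma (0.0707 to 0.175). Without control ZT18 replicate 1 Elovl6 passed (2.21, adjusted p = 0.025). DESeq2 called 3 of the 10 higher, which were Elovl6, Acaca (adjusted p = 0.0152) and Thrsp (adjusted p = 0.0449). Of all genes, the alternative settings other than no filter called 4 to 269, against 76 in the main fit. The other control log2 changes lay between 0.43 for Acacb and 1.91 for Pnpla3, with Thrsp at 1.69 (SE 0.39, adjusted p = 0.129) and Fasn at 1.06 (SE 0.44, adjusted p = 0.366). Within sudachitin livers 6 genes had both ZT18 libraries above both ZT6 libraries, where 23.5% of all genes did, and Srebf1 alone had both below, where 22.3% did. By edgeR 0 of the 10 passed there, against 0.186% of all genes, and 4 had an unadjusted p under 0.05, against 12.6%, or 7 without sudachitin ZT18 replicate 1 and 3 without sudachitin ZT18 replicate 2 or sudachitin ZT6 replicate 1. The sudachitin log2 changes were 1.83 for Thrsp (SE 0.39, adjusted p = 0.118), 1.32 for Elovl6 (SE 0.30, adjusted p = 0.136) and 1.16 for Acacb (SE 0.29, adjusted p = 0.169), and Elovl6 passed without control ZT18 replicate 1 (adjusted p = 0.0463) or replicate 2 (adjusted p = 0.0433). DESeq2 called 3, which were Elovl6 (adjusted p = 9.28e-05), Acacb (adjusted p = 0.00157) and Thrsp (adjusted p = 0.0259). Of all genes, the alternative settings other than no filter called 15 to 263 there, against 27 in the main fit. The medians of the 10 genes were 0.55 in sudachitin and 0.82 in control livers, against 0.01 and 0.02 for all tested genes.

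**Figure D2:**
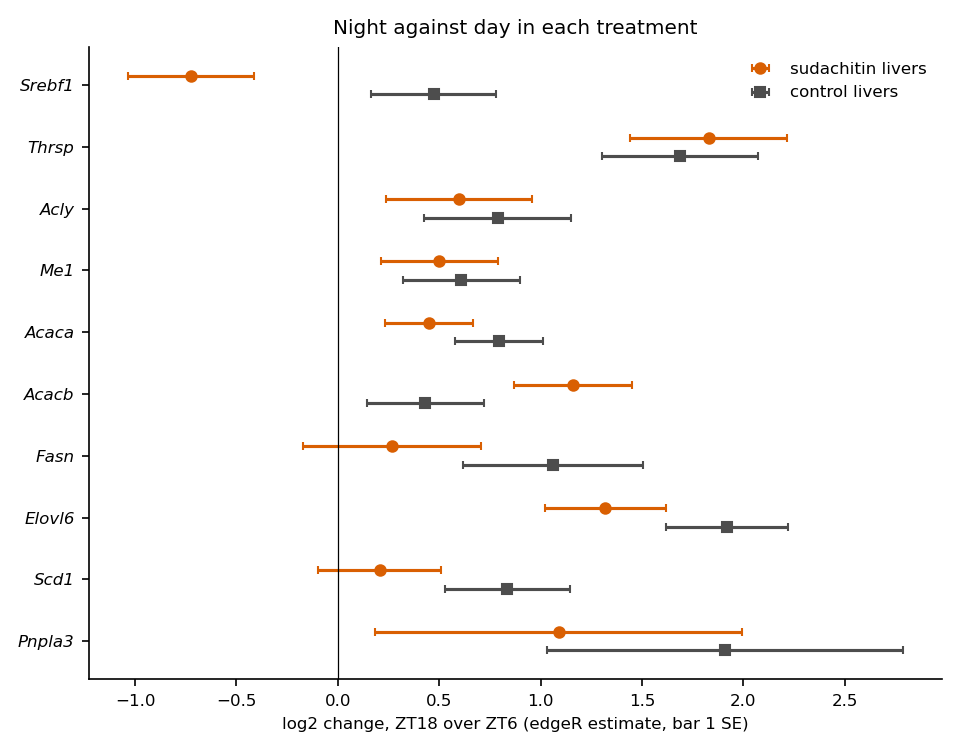
Log2 change at ZT18 over ZT6 for each gene, with circles for sudachitin livers, squares for control livers and bars of 1 SE from the edgeR fit. All 10 control estimates lie above 0, led by Elovl6 at 1.92, while in sudachitin livers Srebf1 lies at -0.73 and the other 9 above 0.

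Srebf1 itself had both its lowest and its highest value in night livers. It had 237 and 291 CPM in sudachitin ZT18 livers and 467 and 610 CPM in control ZT18 livers, against 552 and 321 CPM in sudachitin ZT6 livers and 287 and 488 CPM in control ZT6 livers. The lowest of the 8 was sudachitin ZT18 replicate 1 and the highest control ZT18 replicate 2, with both day groups spread widely between them. The log2 change at ZT18 over ZT6 was -0.73 in sudachitin livers (SE 0.31, edgeR adjusted p = 0.381), 0.47 in control livers (SE 0.31, adjusted p = 0.562) and -0.13 over both (SE 0.29, adjusted p = 0.849). The test of the difference between the 2 treatments gave an interaction of -1.20 for Srebf1 (SE 0.44, adjusted p = 0.998, unadjusted p = 0.0235). By edgeR and by DESeq2 0 of the 10 passed for the interaction, against 0% of all tested genes by edgeR, and Srebf1 was the 1 gene of the 10 with an unadjusted p under 0.05, against 3.78% of all. That number was 4 without sudachitin ZT18 replicate 2, 0 without sudachitin ZT6 replicate 1 or control ZT18 replicate 2, and 2 without control ZT18 replicate 1 or control ZT6 replicate 2. The Srebf1 interaction was -1.38 without control ZT18 replicate 1 and ran from -1.63 to -0.77 over the 8 left-out libraries. The estimates of the other 9 ran from -0.82 for Pnpla3 and -0.80 for Fasn to 0.14 for Thrsp and 0.73 for Acacb.

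By edgeR none of the 10 genes passed the test between sudachitin and control livers, at night, by day or over both times. At ZT18 all 10 estimates were below 0, with a median of -0.70 against 0.00 for all tested genes. The lowest was Fasn at -1.17 (SE 0.44, edgeR adjusted p = 0.721). Pnpla3 followed at -1.13 (SE 0.83, adjusted p = 0.858), Srebf1 at -1.03 (SE 0.31, adjusted p = 0.708) and Elovl6 at -0.88 (SE 0.30, adjusted p = 0.721). Scd1 was at -0.74 (SE 0.31, adjusted p = 0.745), Acly at -0.66 (SE 0.36, adjusted p = 0.813) and Acaca at -0.55 (SE 0.22, adjusted p = 0.729). Thrsp (-0.46, SE 0.38), Me1 (-0.30, SE 0.29) and Acacb (-0.02, SE 0.29) were nearest to 0. Against the 0 called of these 10, 0.0138% of all genes were called. In Srebf1, Fasn, Acaca, Scd1 and Elovl6 both sudachitin livers were below both control livers, which makes 5 of 10 genes against 15.5% of all genes. The same 5 had an unadjusted p under 0.05, against 6.51% of all genes. That number was 1 without sudachitin ZT18 replicate 1, in which Srebf1, Fasn and Pnpla3 had their lowest values, and 1 without control ZT18 replicate 2, in which 9 of the 10 had their highest. It was 7 without sudachitin ZT18 replicate 2 and 6 without control ZT18 replicate 1. Without control ZT18 replicate 1 the log2 change was -1.21 for Srebf1, -1.39 for Fasn and -1.18 for Elovl6 (adjusted p = 0.772, the smallest of the 10). Single libraries moved the size further: Fasn was at -2.14 without sudachitin ZT18 replicate 2 and at -0.60 without sudachitin ZT18 replicate 1, and Elovl6 at -1.29 and -0.56 when these 2 mice were left out in the same order, and at -0.49 without control ZT18 replicate 2. Srebf1 ran from -1.21 to -0.83. The numbers under 0.05 with a library left out again have no number of all genes beside them. They do not show whether the 10 genes depend on a mouse more than other genes do. DESeq2 called Srebf1 lower at ZT18 (adjusted p = 0.0349) and none of the other 9, and edgeR without a filter on low counts called 6 of the 10. Of all genes, no filter called 488 and the other alternative settings 0 to 41, against 2 in the main fit.

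At ZT6 the estimates were closer to 0, with a median of -0.30 against -0.01 for all tested genes and 9 of 10 below 0. Acacb (-0.74, SE 0.29), Thrsp (-0.60, SE 0.38) and Acly (-0.47, SE 0.36) had both sudachitin livers below both control livers, which makes 3 of 10 genes against 16.3% of all. Each had an edgeR adjusted p of 1, and so did the other 7, and DESeq2 called none. Acacb was the 1 gene with an unadjusted p under 0.05, against 2.12% of all genes, and 0% of all genes were called after adjustment. Over the left-out libraries Acacb ran from -1.14 to -0.185, Thrsp from -1.15 to -0.194 and Acly from -0.748 to -0.113. The control ZT6 livers stood apart for Acacb (227 and 117 CPM) and Acly (743 and 477 CPM), less so for Thrsp (514 and 465 CPM). In the full fit Srebf1 was the 1 estimate above 0, at 0.17 (SE 0.31). Kupffer cell markers, a list of 8, summed to 133 and 213 CPM in sudachitin ZT6 livers, against 94.7 and 116 CPM in control ZT6 livers, and all 8 had estimates above 0. Their part in the values of the lipogenic genes was not tested. In whole liver, fewer cells of a type and less RNA per cell cannot be told apart.

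Over both times all 10 estimates were below 0, from -0.78 for Pnpla3 (SE 0.62) and -0.77 for Fasn (SE 0.33) to -0.24 for Me1 (SE 0.20), each with an edgeR adjusted p of 0.996. The median was -0.48 against 0.00 for all tested genes. Among all genes 0.0207% were called, and among the 10 none, by edgeR or by DESeq2. An unadjusted p under 0.05 was reached by 4 of the 10 (Fasn, Acaca, Acly and Elovl6), against 4.41% of all genes. It was reached by none of them without sudachitin ZT6 replicate 2 or without control ZT18 replicate 2, by 1 without sudachitin ZT18 replicate 1 and by 2 without control ZT6 replicate 1, but by 6 without sudachitin ZT18 replicate 2 and by 5 without control ZT18 replicate 1, sudachitin ZT6 replicate 1 or control ZT6 replicate 2. No gene of the 10 had its 4 sudachitin libraries all above or all below its 4 control libraries, where 0.958% of all genes had them all higher and 0.869% all lower.

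**Figure D3:**
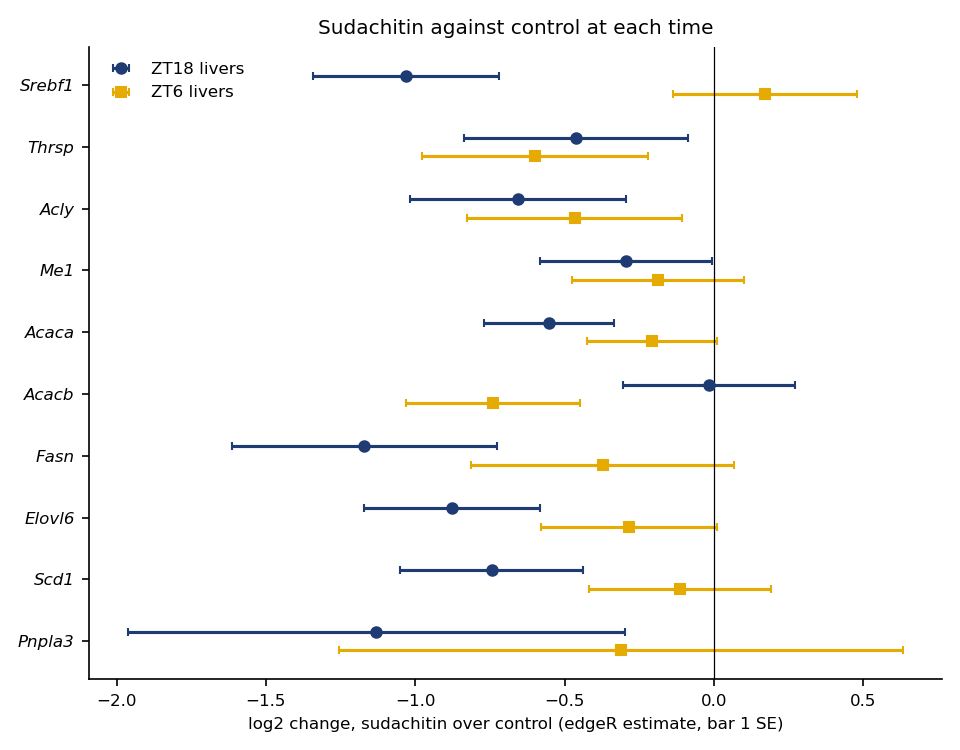
Log2 change of sudachitin over control for each gene, with circles for ZT18 livers, squares for ZT6 livers and bars of 1 SE from the edgeR fit. All 10 ZT18 estimates lie at or below -0.02, led by Fasn at -1.17, and at ZT6 Srebf1 alone lies above 0; none passed the test.

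Gaps between the 2 mice of a group were wide in these genes. The median gap between the 2 mice, in log2 units, was 0.74 over the 10 genes and 0.22 over all tested genes in sudachitin ZT18 livers, 0.43 and 0.27 in control ZT18 livers, 0.25 and 0.18 in sudachitin ZT6 livers and 0.70 and 0.18 in control ZT6 livers. Several of these gaps ran the same way across the genes. In sudachitin ZT18 livers 8 of 10 were higher in replicate 2 (Scd1 and Me1 were not), where 50.5% of all genes were, and in control ZT18 livers all 10 were, where 49.3% of all genes were. In sudachitin ZT6 livers 7 of 10 were higher in replicate 1, where 50.9% of all genes were, and in control ZT6 livers 8 of 10 (Srebf1 and Fasn were not), where 48.9% of all genes were. Replicate numbers name mice and have no order.

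The profiles over the 8 livers were compared as the root mean square difference of log2 CPM standardized per gene, so that a small value means a like pattern whatever the level. The values are a description of 8 livers that share their libraries. Among the 45 pairs of the 10 genes, Elovl6 and Thrsp were most alike (0.25), followed by Acaca and Acly (0.29), Acaca and Elovl6 (0.32) and Acly and Pnpla3 (0.36). Scd1 and Me1 stood 0.48 apart. Srebf1 stood 0.78 from Fasn, its nearest among the other 9, 1.09 from Pnpla3 and up to 1.55 from the rest, with Acacb the farthest. Among 8919 other genes with a mean of at least 5 CPM, those most like Srebf1 were Ints9, a subunit of the Integrator complex (0.31), Dbr1, the enzyme that opens intron lariats (0.33), Mid1ip1 (0.34), the mitochondrial transfer RNA gene mt-Ts1 (0.35) and Snx18, a sorting nexin (0.39). Mid1ip1 encodes MIG12, a relative of Spot 14 that promotes the assembly of acetyl-CoA carboxylase into filaments. It had 44.1 and 66.3 CPM in sudachitin ZT18 livers and 85.3 and 157 CPM in control ZT18 livers, against 103 and 50.7 CPM in sudachitin ZT6 livers and 59.4 and 102 CPM in control ZT6 livers. Its sudachitin night livers were both below both control night livers, as were those of 15.5% of all genes. Its log2 change at ZT18 was -1.13 (SE 0.42, edgeR adjusted p = 0.721). Mid1ip1 was picked for its likeness to Srebf1 over these same 8 livers, so a shared night pattern follows from that choice.

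**Figure D4:**
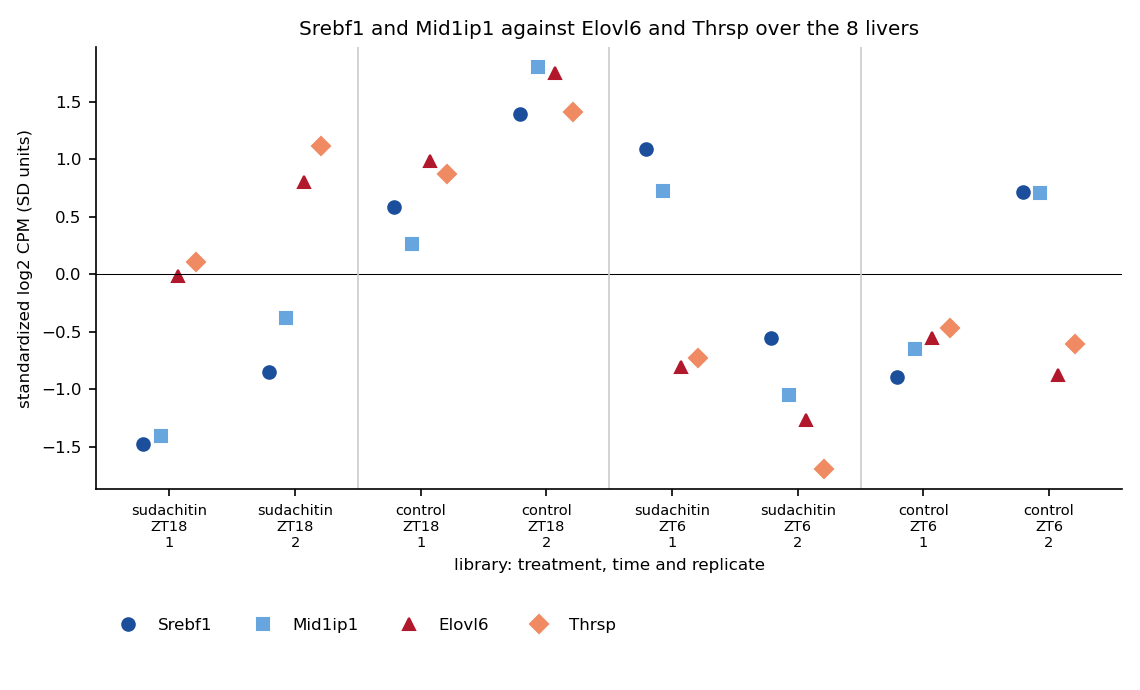
Log2 CPM of Srebf1, Mid1ip1, Elovl6 and Thrsp, standardized per gene to SD units, in each of the 8 libraries, with grey lines between the groups. Srebf1 and Mid1ip1 have their lowest points in sudachitin ZT18 replicate 1, and Elovl6 and Thrsp have theirs in sudachitin ZT6 replicate 2.

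Genes around the pathway, in lists of their own, were tested in the same fit, in which 1.86% of all genes were called higher at night over both treatments, 1.82% lower and 20.4% had an unadjusted p under 0.05. Of 18 genes for carbon and NADPH supply, 1 rose at ZT18 over both treatments by edgeR and none fell. In the same list Tkt, transketolase (0.50, SE 0.14, adjusted p = 0.0835), Taldo1, transaldolase (0.28, SE 0.08, adjusted p = 0.0933), and Pklr, the pyruvate kinase of liver (0.70, SE 0.21, edgeR adjusted p = 0.111), did not pass. Of 14 other desaturases, elongases and acyl-CoA synthetases, 2 rose and none fell. They were the acyl-CoA synthetases Acsl4 (0.57, SE 0.11, adjusted p = 0.0296) and Acsl1 (0.64, SE 0.13, adjusted p = 0.0319), while Tecr, an enoyl-CoA reductase of elongation (0.32, SE 0.08, adjusted p = 0.0555), and Elovl2, an elongase of polyunsaturated chains (-0.35, SE 0.09, adjusted p = 0.0747), did not pass. Without control ZT18 replicate 1 both calls held (Acsl4 0.62, adjusted p = 0.0162, and Acsl1 0.51, adjusted p = 0.028). The call of Acsl4 was lost without any 1 of sudachitin ZT6 replicates 1 and 2, control ZT6 replicate 2, sudachitin ZT18 replicate 1 and control ZT18 replicate 2 (adjusted p = 0.0679 to 0.109) and with limma without a filter (0.106). That of Acsl1 was lost without any 1 of the 6 libraries outside control ZT18 (0.0642 to 0.111) and with limma (0.0747 to 0.187).

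On the side that restrains synthesis, 1 of 10 genes of malonyl-CoA decay, AMPK and carboxylase turnover fell at night and none rose. This was Trib3, whose pseudokinase product is known to bring acetyl-CoA carboxylase to the ubiquitin ligase COP1 in mouse fat. It had 2.61 and 2.29 CPM in sudachitin ZT18 livers and 3.12 and 1.97 CPM in control ZT18 livers, against 8.11 and 6.55 CPM in sudachitin ZT6 livers and 7.41 and 8.82 CPM in control ZT6 livers. Night and day did not overlap, and the share of all genes lower at night without overlap is not given here. Trib3 fell by 1.62 over both treatments (SE 0.18, edgeR adjusted p = 0.00265). Its change was -1.66 in control livers (SE 0.27, adjusted p = 0.0438) and -1.58 in sudachitin livers (SE 0.27, adjusted p = 0.071). In control livers 0.31% of all genes were called lower. The call over both treatments held without any 1 library (adjusted p = 0.0017 to 0.0153) and was -1.76 without control ZT18 replicate 1. The call in control livers held without control ZT18 replicate 1 (-2.05, adjusted p = 0.0377) or replicate 2 (-1.37, adjusted p = 0.0449), and was lost without any 1 of the other 6 libraries (0.0705 to 0.284), with the replicate block (0.0599), with only the compared groups (0.193) and with limma (0.0629 to 0.185). The kinases Stk11 (-0.23, adjusted p = 0.101), Prkaa1 (0.28, adjusted p = 0.189) and Prkaa2 (0.20, adjusted p = 0.346) did not pass.

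By edgeR 0 of the 18 genes of SREBP processing and lipogenic transcription factors passed between night and day in either direction, and 9 had an unadjusted p under 0.05. The nearest were Nr1h2, which encodes LXR beta (-0.32, SE 0.08, edgeR adjusted p = 0.0543), Rxra, its partner (-0.34, SE 0.10, adjusted p = 0.0984), Scap, the escort of SREBPs to the Golgi (-0.42, SE 0.13, adjusted p = 0.104), and Ppargc1b, a coactivator of SREBP-1 (-0.76, SE 0.23, adjusted p = 0.104). Of 10 genes of triglyceride assembly 0 passed and 3 had an unadjusted p under 0.05. Agpat2, an acyltransferase, was at 0.31 (adjusted p = 0.142). Gpat3 and Gpat4, glycerol-phosphate acyltransferases, were at 1.03 (adjusted p = 0.227) and 0.33 (adjusted p = 0.197). Mogat1, a monoacylglycerol acyltransferase, was at 1.09 (adjusted p = 0.299). Mogat1 had 7.87 CPM in control ZT18 replicate 1, against 0.763 to 2.11 CPM in all other libraries. Of 14 genes of insulin signalling 0 passed and 4 had an unadjusted p under 0.05, with Pik3r1, a regulatory subunit of PI3-kinase, at 0.33 (adjusted p = 0.0804), Akt2 at -0.22 (adjusted p = 0.168), Tsc1 at -0.41 (adjusted p = 0.174) and Mtor at 0.24 (adjusted p = 0.245). Of 7 LXR targets outside lipogenesis none rose and 1 fell, the sterol exporter Abcg8 (-0.65, SE 0.12, adjusted p = 0.0216), while Pltp, a phospholipid transfer protein (0.72, SE 0.20, adjusted p = 0.0872), and the cholesterol exporters Abca1 (-0.09, adjusted p = 0.54) and Abcg1 (0.22, adjusted p = 0.514) did not pass. Abcg8 passed without control ZT18 replicate 1 (-0.63, adjusted p = 0.0202) and did not without sudachitin ZT6 replicate 1 (0.0695), control ZT6 replicate 2 (0.074) or sudachitin ZT18 replicate 1 (0.0594), nor with limma without a filter (0.0654).

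Between sudachitin and control livers 0 genes of these 7 lists passed over both times by edgeR, with adjusted p-values of 0.996 or more. All 18 genes of carbon and NADPH supply were below 0, with a median of -0.20 against 0.00 for all tested genes, and 5 of them had an unadjusted p under 0.05, as did 0 or 1 in each other list, against 4.41% of all genes. Among them were Pgd, of the pentose phosphate pathway (-0.47, SE 0.16), and Tkt (-0.36, SE 0.14). The smallest unadjusted p of the named genes was that of Gpam, the mitochondrial acyltransferase that begins triglyceride synthesis (-0.67, SE 0.16, adjusted p = 0.996, unadjusted p = 0.00178). Gpam had 259 and 426 CPM in sudachitin ZT18 livers, against 632 and 587 CPM in control ZT18 livers, and 431 and 381 CPM in sudachitin ZT6 livers, against 627 and 532 CPM in control ZT6 livers. Its 4 sudachitin livers were all below its 4 control livers, and the change was -0.62 without control ZT18 replicate 1 (adjusted p = 0.943). Of all genes, 0.869% had their 4 sudachitin livers all below their 4 control livers. DESeq2 called Gpam lower (adjusted p = 0.016). Elsewhere Acsl3, an acyl-CoA synthetase (-0.39, SE 0.13), Elovl5, an elongase (-0.45, SE 0.21), Mtor (-0.29, SE 0.11), Gpd1, glycerol-phosphate dehydrogenase (-0.26, SE 0.13), Pltp (-0.37, SE 0.20), Lpcat3, a phospholipid acyltransferase (-0.20, SE 0.11), Mid1ip1 (-0.60, SE 0.33) and Mlx, the partner of ChREBP (-0.17, SE 0.09), were below 0. Pck1, of gluconeogenesis (0.48, SE 0.28), and the AMPK subunit Prkag2 (0.12, SE 0.09) were above 0, and the AMPK subunit Prkab1 (-0.15, SE 0.12) below. At ZT18 alone 0 genes of the 7 lists passed by edgeR, and an unadjusted p under 0.05 was reached by 3 genes of carbon and NADPH supply, 3 of insulin signalling, 2 of SREBP processing, 2 of triglyceride assembly, 1 each of the desaturase and AMPK lists and 0 LXR targets, against 6.51% of all genes. The 14 genes of insulin signalling had a median of -0.01 at ZT18, with 7 above 0 and 7 below. The 3 with an unadjusted p under 0.05, named after their values were seen, were all above 0. Irs2, the insulin receptor substrate of liver, was at 1.10 (SE 0.21, edgeR adjusted p = 0.39). Igfbp1, an insulin-repressed binding protein, was at 1.39 (SE 0.51, adjusted p = 0.721), and Pck1 at 0.98 (SE 0.33, adjusted p = 0.721). Irs2 had 40.9 and 25.1 CPM in sudachitin ZT18 livers, against 15.8 and 15 CPM in control ZT18 livers.

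**Figure D5:**
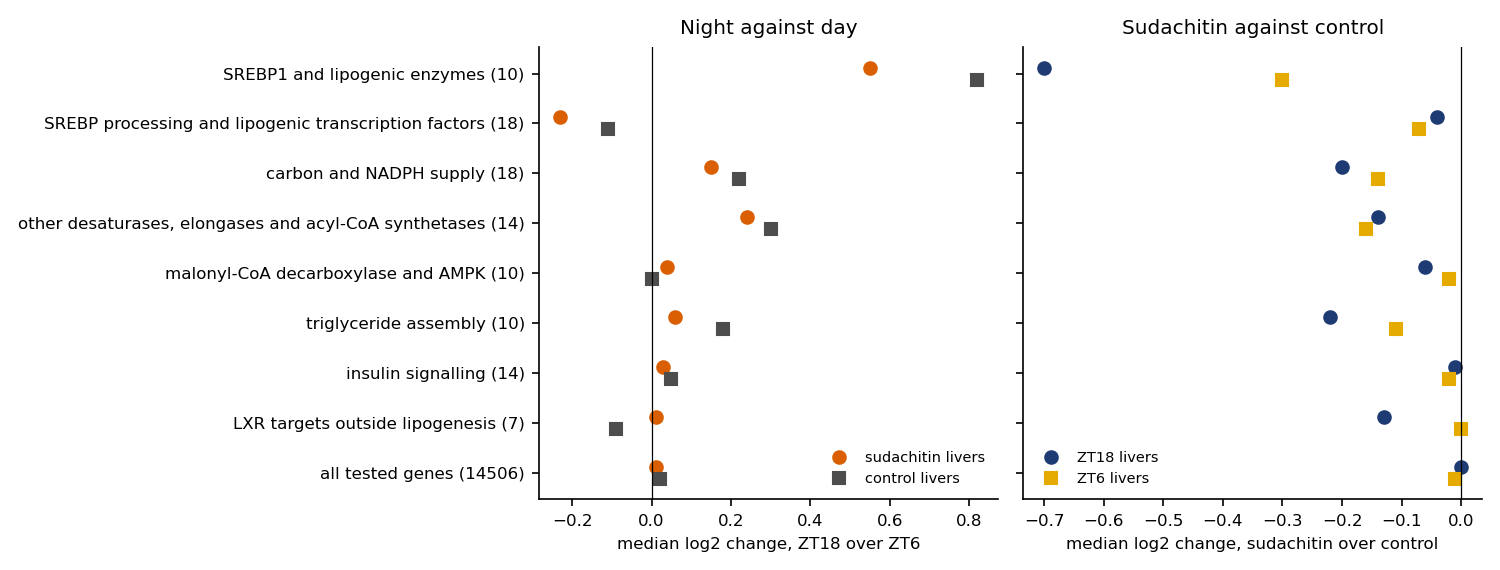
Median log2 change of each pathway list (number of tested genes in brackets), at ZT18 over ZT6 on the left (circles sudachitin, squares control livers) and for sudachitin over control on the right (circles ZT18, squares ZT6 livers). The 10 genes have medians of 0.55 and 0.82 on the left and of -0.70 and -0.30 on the right, and the medians of the 7 other pathway lists lie closer to 0.

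Markers of other cell types summed to less than the hepatocyte markers. Of 8 adipocyte markers, Adipoq was at 0 in 6 of the 8 libraries, Lep in 5, Plin1 in 7 and Retn in 6, while Car3 (1871 to 3234 CPM), Lipe (13.1 to 21.2), Cfd (2.34 to 15.4) and Fabp4 (4.46 to 16.2) were at 0 in none. The list summed to 1917 and 2435 CPM in sudachitin ZT18 livers and 3275 and 2767 CPM in control ZT18 livers, against 2728 and 2816 CPM in sudachitin ZT6 livers and 2834 and 3073 CPM in control ZT6 livers, mostly Car3. Cholangiocyte markers, a list of 6 that was mostly Spp1 (14.8 to 67.3 CPM), summed to 60.7 and 32.9 CPM in sudachitin ZT18 livers. They summed to 77.3 and 45.5 CPM in control ZT18 livers. The sums were 22.8 and 36.8 CPM in sudachitin ZT6 livers and 29.8 and 28 CPM in control ZT6 livers. In 3 of the 4 night livers the markers thus summed to more than in any day liver. Their part in the night values of the lipogenic genes was not tested. The counted transcripts of Srebf1, Me1 and Elovl6 share 109, 30 and 3 exon bases with genes on the opposite strand, and that of Pnpla3 shares 105 with a gene on its own strand. Since the libraries carry no strand information and 1 transcript was counted per gene, reads from those bases, and the SREBP-1a and SREBP-1c transcripts of Srebf1, cannot be told apart.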

How the data were processed

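RNA from 8 mouse livers, each sample title naming a mouse, was sequenced as 150-base read pairs from poly(A)-selected libraries without strand information, per the labels' protocols. Per the submitters' processing notes the tools were Trimmomatic 0.39, STAR 2.7.2a and HOMER (version not given), with mouse build GRCm38 (mm10). The deposited tables hold estimated counts in exons in steps of 0.5, not normalized, and FPKM per the file headers, for 1 canonical transcript per gene. The deposited FPKM equalled the count divided by exon length and header total within 4.0e-11. The sources used here do not say how strand and reads with several positions were treated.

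Counts were rounded, with 0.5 rounded up (19.7% to 21.9% of values ended so), and tested in R 4.3.3 with edgeR 4.0.16: TMM factors (0.966 to 1.02), the default filter by group and the quasi-likelihood F test over all 8 libraries. A model of 4 group means gave the pairwise comparisons and the interaction, and an additive model the effects over both treatments or times. Adjusted p-values are Benjamini-Hochberg over all 14506 tested transcripts, with a threshold of 0.05. The SE is the size of the log2 change divided by the square root of F. Libraries held 13914116 to 17759630.5 counts. Counting error is larger for genes with few counts, such as Pnpla3. Counts per library were 12.5 to 141 for Mogat1, 28 to 135 for Trib3 and 46.5 to 290.5 for Gpat3. Standardized profiles used log2 CPM with a prior count of 2. Groups and replicate numbers came from the titles.

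All 10 members are named. Of each other pathway list, the rule named up to 4 genes with the smallest p for time, up to 2 for treatment and every called gene, of which 1 is not reported here. The members and lists were chosen with earlier results of these data known. Sequences are from RefSeq promoter tables, in which 9 of the 10 genes had an entry; those of Acaca and Acacb start 22316 and 18983 bases from the counted transcript and were not used. Alternatives were DESeq2 1.42.0, median-of-ratios factors, total counts, no filter, a floor of 5 CPM in 2 libraries, fits limited to the compared groups, the replicate block, 0.5 rounded down, limma 3.58.1 on log2(FPKM + 0.1) or + 1 for transcripts of at least 0.5 FPKM in 2 libraries, or without that filter, and each library left out. For the called genes of the other lists and Gpam, the same alternatives were added after seeing the data.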

Additional observations from a re-analysis of the deposited data

How the results depend on the processing

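Over 7 comparisons, the 10 genes kept their direction and their side of the threshold in 1211 of 1300 values under 11 alternative settings and 8 left-out libraries. They newly passed in 51, of which 36 came without a filter on low counts and 9 with DESeq2, lost their call in 11, and changed sign in 27, each of these with a library left out. Without a filter on low counts edgeR called 1 of the 10 for treatment at ZT6, 6 at ZT18, 8 for time in control, 6 for time in sudachitin, 2 for the interaction, 9 for time over both treatments and 7 for treatment over both times. All genes called then numbered 67, 488, 881, 861, 259, 1629 and 309 in that order, against 0, 2, 76, 27, 0, 534 and 3 with the filter. The cause was not tested. DESeq2 called 1 at ZT18, 3 for time in control, 3 in sudachitin and 5 over both. The control night call of Elovl6 was lost (0 called) with only the groups compared (adjusted p = 0.13), with the replicate block (adjusted p = 0.0627) and with limma (adjusted p = 0.0707 to 0.175). Limma without a filter called 0 for time over both treatments, with adjusted p = 0.0506 for Elovl6 and 0.0614 for Thrsp. Over the other settings besides no filter, all genes called ranged from 0 to 10 for treatment at ZT6, 0 to 41 at ZT18, 4 to 269 for time in control, 15 to 263 in sudachitin, 0 to 14 for the interaction, 141 to 931 for time over both and 1 to 13 for treatment over both. With a library left out these counts ran from 0 to 3, 0 to 194, 5 to 323, 1 to 185, 0 to 13, 164 to 1048 and 2 to 6 in the same order, and 0 to 1 of the 10 were called for time in control, 0 to 1 in sudachitin and 2 to 4 over both.

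Values that changed sign ranged, over left-out libraries, as follows on the log2 scale. For treatment at ZT6 Srebf1 ran from -0.26 to 0.61, Acaca from -0.41 to 0.03, Scd1 from -0.46 to 0.35, Me1 from -0.59 to 0.39 and Pnpla3 from -0.76 to 0.31. For treatment at ZT18 Acacb ran from -0.30 to 0.22. For time in sudachitin Fasn ran from -0.70 to 0.84, Scd1 from -0.22 to 0.53 and Pnpla3 from -1.41 to 1.95, and for time over both treatments Srebf1 from -0.40 to 0.15. For the interaction Thrsp ran from -0.45 to 0.68, Acly from -0.75 to 0.28, Me1 from -0.68 to 0.30 and Pnpla3 from -3.31 to 0.19. Scaling moved the median of all genes by 0.030 or less.

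Same-numbered libraries deviated with correlations of -0.20 to 0.28 between groups, across genes, the highest being between the ZT18 groups. With 2 mice per group these values cannot decide whether replicate numbers pair the mice. With the replicate block, 43 of all genes were called for time in control, against 76.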
